A study of Mus musculus with 4 samples.

Results

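The small leucine-rich proteoglycans and versican were followed in the mouse heart as 8 genes chosen by symbol, namely Dcn, Bgn, Aspn, Lum, Fmod, Prelp, Ogn and Vcan, out of 23282 genes listed. Each symbol matched 1 row. The study compared 4 groups of male CDF1 mice with 10 mice planned per group. E(-)T(-) mice neither exercised nor received tumor cells, E(+)T(-) mice ran on a treadmill at high intensity, E(-)T(+) mice received CT26 murine colorectal cancer cells through the tail vein without exercise, and E(+)T(+) mice received the cells and ran. These hearts are called the control, exercised, tumor and exercised tumor heart below. The heart of each group was represented by 1 library made from 500 ng of total RNA, and how many mice gave that RNA is not stated for the heart. For the muscle libraries the study used 1 mouse per group, and it describes the work on the heart as similar. The age label is postnatal day 28 in every library, while the methods describe a running period that began after arrival at about that age. With 1 library per group there was no replicate, so no test between groups was possible and every difference below is a difference between libraries.

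Small leucine-rich proteoglycans are secreted matrix proteins with a curved core of leucine-rich repeats that bind collagen fibrils and set their width and spacing. Decorin, biglycan and asporin form class I, lumican, fibromodulin and PRELP belong to class II, and osteoglycin (mimecan) to class III. Versican is a large chondroitin sulfate proteoglycan of the lectican family that binds hyaluronan and is abundant in the developing and in the inflamed heart. In the heart these genes are read mainly from fibroblasts, valve cells and smooth muscle cells, and several members also bind growth factors such as TGF-β.

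Promoter windows are shown for the 5 members that passed 2-fold in at least 1 comparison: Ogn, Prelp and Fmod, which were low in both tumor libraries, and Vcan and Bgn, which were highest in the tumor heart. Each window holds 250 bases before and 50 bases after a transcription start in RefSeq (GRCm38.p6), read 5′ to 3′ on the gene's strand, with motif matches in capitals. The windows lay at chr13:49607765-49608064 on the plus strand for Ogn, chr1:133921352-133921651 on the minus strand for Prelp, chr1:134037004-134037303 on the plus strand for Fmod, chr13:89742463-89742762 on the minus strand for Vcan and chrX:73483351-73483650 on the plus strand for Bgn. The start used for Prelp lay 8701 bases, and that for Vcan 515 bases, inside the outer RefSeq gene start.
Ogn: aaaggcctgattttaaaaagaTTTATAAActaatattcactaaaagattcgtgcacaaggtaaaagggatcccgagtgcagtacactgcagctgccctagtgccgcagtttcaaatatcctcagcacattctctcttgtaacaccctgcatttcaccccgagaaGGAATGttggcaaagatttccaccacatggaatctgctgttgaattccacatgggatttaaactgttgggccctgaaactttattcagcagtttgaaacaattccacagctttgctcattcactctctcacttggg
Prelp: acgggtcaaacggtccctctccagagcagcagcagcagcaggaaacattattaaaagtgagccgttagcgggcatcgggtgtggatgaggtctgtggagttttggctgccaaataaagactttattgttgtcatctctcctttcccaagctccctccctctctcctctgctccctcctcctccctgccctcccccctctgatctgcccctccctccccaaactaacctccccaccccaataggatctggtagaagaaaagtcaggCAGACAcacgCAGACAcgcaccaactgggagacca
Fmod: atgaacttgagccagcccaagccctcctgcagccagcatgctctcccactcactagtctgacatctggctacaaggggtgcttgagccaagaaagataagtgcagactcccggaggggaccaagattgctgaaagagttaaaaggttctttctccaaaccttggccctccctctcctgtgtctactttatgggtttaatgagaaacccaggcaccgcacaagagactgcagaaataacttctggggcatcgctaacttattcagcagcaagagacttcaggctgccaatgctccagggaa
Vcan: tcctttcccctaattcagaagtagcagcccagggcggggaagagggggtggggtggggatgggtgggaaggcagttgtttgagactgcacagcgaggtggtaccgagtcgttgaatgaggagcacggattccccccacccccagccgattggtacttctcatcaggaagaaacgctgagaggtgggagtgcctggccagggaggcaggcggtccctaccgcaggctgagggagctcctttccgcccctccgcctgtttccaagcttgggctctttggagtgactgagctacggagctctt
Bgn: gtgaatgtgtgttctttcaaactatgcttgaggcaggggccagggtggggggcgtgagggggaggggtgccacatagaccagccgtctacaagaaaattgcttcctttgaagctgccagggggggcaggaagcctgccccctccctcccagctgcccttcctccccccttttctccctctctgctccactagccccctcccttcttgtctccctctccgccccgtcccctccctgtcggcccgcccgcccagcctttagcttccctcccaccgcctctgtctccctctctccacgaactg

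RefSeq windows matched 6 of the 8 members, without Dcn and Lum. The letters searched on both strands were CAGACA for the SMAD box, TGANTCA for the AP-1 site, GGAATG for the TEAD site and TATAAA for the TATA box. The SMAD box stood in 1 of the 6 member windows, that of Prelp, which held it at 2 positions, against 21.0% of all 32851 windows. The TEAD letters stood in the Ogn window only, against 14.7% of all windows. The TATA box letters were found in the Aspn and Ogn windows, against 13.6%, and in the Ogn window the matches on the 2 strands overlap. The AP-1 letters were in none of the 6, against 7.81% of all windows. The Bgn window was 63.7% G or C and the Aspn window 31.0%. A match describes letters in a window and no site was tested.

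The libraries held 6595423 reads for the control heart, 8477102 for the exercised heart, 9532868 for the tumor heart and 11546013 for the exercised tumor heart, as recovered from the deposited values. Cardiomyocyte markers were read in every library for 11 of 11 genes, with a summed level of 462598 to 514596 normalized reads, as the heart label states. Globin genes took 7.86% to 8.76% of the reads in 3 libraries and 37.3% in the exercised tumor heart, so the exercised tumor heart stood apart. Of the 10 erythroid markers read, all 10 were at least 2-fold higher in the exercised tumor heart than in each of the other two libraries it was compared with, and none was at 0. The part of the erythroid RNA in the values below was not tested.

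Levels are given as normalized reads, the deposited log2 values turned back to a linear scale, and as recovered reads, the whole reads behind them. The assay reads the 3′ end of each transcript once, so normalized reads do not scale with transcript length. How evenly the 3′ ends of different genes were captured was not tested. Orders and ratios between genes within a library are therefore given in reads, not in transcripts. Intervals are 95% intervals for counting error only and leave out any spread between mice, and amplified copies of a molecule were not removed.

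Dcn, which encodes decorin, had the most reads of the 8 genes in every library. It stood at rank 16 to 27 among all genes. Its level was 20423 normalized reads in the control heart, 22489 in the exercised heart, 40453 in the tumor heart and 29409 in the exercised tumor heart. Both tumor libraries lay above both tumor-free libraries in these units, whereas as a share of the library, in RPM, Dcn stood at 2702, 2933, 4811 and 2329 in the same order, lowest in the exercised tumor heart. Bgn, the gene of biglycan, a collagen-binding proteoglycan that can also act on Toll-like receptors, came next in every library. Its level was 2496 in the control heart, 3166 in the exercised heart, 4193 in the tumor heart and 1756 in the exercised tumor heart, so the 2 tumor libraries held its highest and its lowest value. Aspn encodes asporin, which binds collagen and TGF-β. It was read at 452 in the control heart, 517 in the exercised heart, 304 in the tumor heart and 265 in the exercised tumor heart, lower in both tumor libraries than in both others.

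Among the class II genes, Lum encodes lumican, a regulator of collagen fibril assembly. Lum was read at 701 normalized reads in the control heart, 701 in the exercised heart, 1151 in the tumor heart and 623 in the exercised tumor heart, and the tumor heart alone stood clear of the rest. In RPM the exercised tumor heart was also apart, at 49.4 against 91.4 to 137 in the other libraries. Fmod, the gene of fibromodulin, which shares collagen binding sites with lumican, had the fewest reads of the members in every library. Its level was 98.6 in the control heart, 269 in the exercised heart, 17.4 in the tumor heart and 21.0 in the exercised tumor heart, and the last 2 values rest on 20 and 19 recovered reads. Prelp encodes a proteoglycan that anchors basement membranes to connective tissue. It was read at 297 in the control heart, 569 in the exercised heart, 119 in the tumor heart and 163 in the exercised tumor heart. Fmod and Prelp thus shared an order, highest in the exercised tumor-free heart and low in both tumor libraries.

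Ogn encodes osteoglycin, a class III member found in heart and bone matrix. Its level was 667 in the control heart, 947 in the exercised heart, 206 in the tumor heart and 319 in the exercised tumor heart, again with the tumor-free libraries above the tumor libraries. Vcan went the other way. It was read at 137 in the control heart, 278 in the exercised heart, 744 in the tumor heart and 249 in the exercised tumor heart. Vcan was thus lowest in the untreated heart and highest in the sedentary tumor heart, while both exercised hearts had overlapping intervals in normalized reads. In RPM they differed, at 36.2 in the exercised and 19.7 in the exercised tumor heart. The isoforms of versican, which differ in their chondroitin sulfate attachment region, are not told apart by a count per gene.

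**Figure D1:**
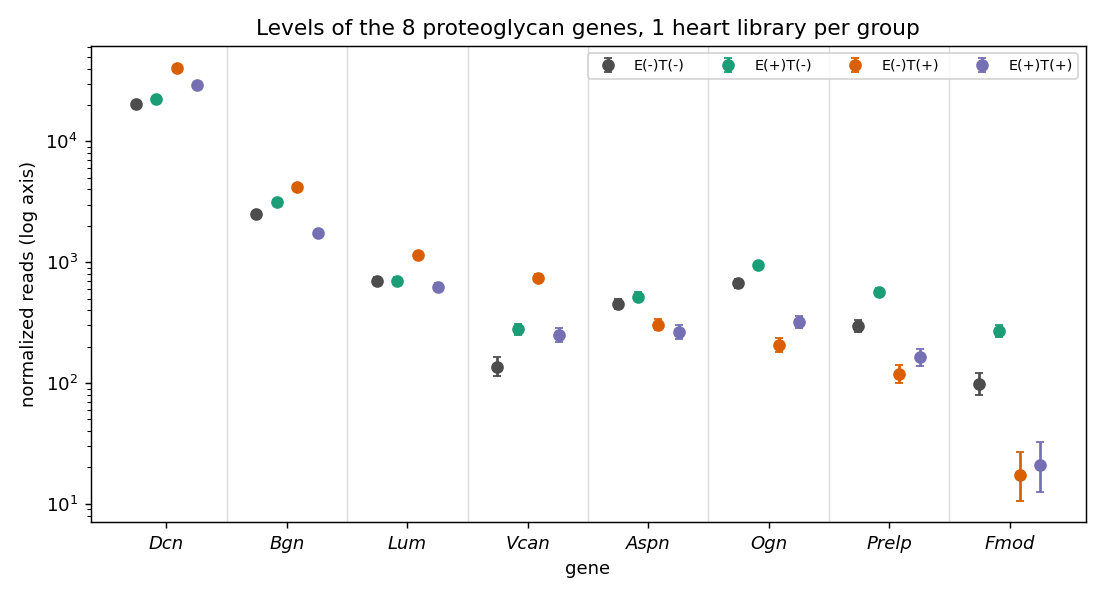
Normalized reads (log axis) of the 8 genes, with 1 point per heart library and 95% Poisson intervals on the recovered reads as bars. Dcn lies above all others at 20423 to 40453, and Fmod runs from 269 in the exercised heart to 17.4 in the tumor heart.

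The order of the genes changed below the first pair. Dcn and then Bgn led in all 4 libraries, and Fmod was last in all 4. In the control heart Lum and Ogn did not differ beyond their intervals, nor did Vcan and Fmod. In the exercised heart Ogn followed Bgn, and the neighbours Prelp and Aspn overlapped, as did Vcan and Fmod. Vcan stood next to last in both tumor-free libraries. It followed Lum in the tumor heart, where every neighbour was separated, and in the exercised tumor heart Ogn, Aspn and Vcan overlapped in turn.

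The first comparison, E(+)T(-) vs. E(-)T(-), concerned exercise in the tumor-free heart. Fmod and Vcan rose at least 2-fold and no member fell. This was 2 of 8 members that rose, beside 5.88% of 13937 genes tested, and 0 of 8 that fell, beside 6.40%. All 8 members passed the minimum of 4 normalized reads in each of the 4 comparisons. Fmod rose by 1.44 on the log2 scale (interval 1.10 to 1.81), from 86 to 297 recovered reads. Vcan rose by 1.02 (0.72 to 1.34), from 119 to 307 reads, and scaling to reads outside the globin genes took Vcan below 2-fold. Prelp was 0.94 higher (0.73 to 1.15) and Ogn 0.51 higher (0.36 to 0.65), short of 2-fold. Bgn, Aspn and Dcn were higher by 0.34, 0.20 and 0.14, and Lum differed by -0.001, with an interval of -0.16 to 0.15. The median over the 8 was 0.42, against 0.002 over all genes tested. All log2 changes are on the scale of log2(normalized reads + 1), which understates the change of scarce genes.

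Markers of other cells moved with this comparison. Of 14 valve and tendon markers listed, 13 were tested, 5 rose and none fell, with a median of 0.93. Their summed level was 1621 normalized reads in the control heart, 2328 in the exercised heart, 2246 in the tumor heart and 1862 in the exercised tumor heart. Comp, a cartilage and tendon matrix protein gene, was read at 14, 78, 14 and 14 reads in the control heart, the exercised heart, the tumor heart and the exercised tumor heart. Cilp2, a cartilage matrix gene, was read at 18, 101, 17 and 35. The tenocyte markers Tnmd and Mkx had reads in the exercised heart alone, 5 and 2 of them, and Chodl had no read in the control heart or in the tumor heart. The list was not uniform, with 11 markers higher and 2 lower in this comparison. Scx had 113, 202, 378 and 176 reads in the same order of libraries and Frzb 157, 321, 718 and 138, both highest in the tumor heart. Sox9 had 290, 386, 89 and 92 reads. Of 9 adipocyte markers, 6 fell and none rose, with a median of -1.85. Cidec, a lipid droplet gene, went from 230 to 96 reads, and Lep had no read in the exercised heart. Of 10 smooth muscle and pericyte markers, 4 rose and none fell, with a median of -0.04 and none at 0, and their summed level went from 9450 to 12600 normalized reads. The part of these cells in the differences of Fmod, Prelp and Vcan was not tested. Fewer cells of a type and less RNA per cell cannot be told apart in these bulk samples.

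The second comparison, E(-)T(+) vs. E(-)T(-), concerned the tumor in the sedentary heart, and here the members divided. Vcan rose, Fmod, Ogn and Prelp fell, and the other 4 stayed within 2-fold. This was 1 of 8 that rose, beside 14.6% of 14317 genes tested, and 3 of 8 that fell, beside 13.1%. Vcan rose by 2.44 (2.17 to 2.74), which is 5.41-fold, from 119 to 843 reads. Fmod fell by 2.44 (interval -3.26 to -1.77), from 86 to 20 reads, Ogn fell by 1.69 (-1.92 to -1.47), from 582 to 234 reads, and Prelp fell by 1.31 (-1.63 to -1.01), from 259 to 135 reads. Dcn was higher by 0.99 (0.96 to 1.01), just under 2-fold, Bgn by 0.75 and Lum by 0.71, while Aspn was lower by 0.57 on the log2 scale (-0.78 to -0.36). The median was 0.07, against -0.01 over all genes.

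The collagens, crosslinking enzymes and other fibril genes that work beside these proteoglycans were 17 genes, of which 10 rose and none fell in this comparison, with a median of 1.25. Col1a1, a fibrillar collagen chain, went from 522 to 2907 reads and Lox, a collagen crosslinking enzyme, from 31 to 562 reads. Of 18 tested proteases and inhibitors that act on proteoglycans, 11 rose and 1 fell, among them Adamts4, a versican-cleaving protease, from 2 to 75 reads, and Timp1, a metalloproteinase inhibitor, from 18 to 922 reads. Of 15 monocyte and macrophage markers, 9 rose and none fell, with a summed level of 3710 normalized reads in the control heart, 4507 in the exercised heart, 10498 in the tumor heart and 9659 in the exercised tumor heart. No marker was at 0, and the list includes S100a8 and S100a9, which neutrophils also express. The part of these cells in the Vcan difference was not tested. Adipocyte markers moved too, with 6 of 9 that fell and none that rose and a summed level of 22682 normalized reads in the control heart, 16005 in the exercised heart, 13880 in the tumor heart and 22188 in the exercised tumor heart. Plin1, a lipid droplet gene, had no read in the tumor heart, and the part of fat cells in these values was not tested. Of the 10 smooth muscle and pericyte markers 4 rose here as well.

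**Figure D2:**
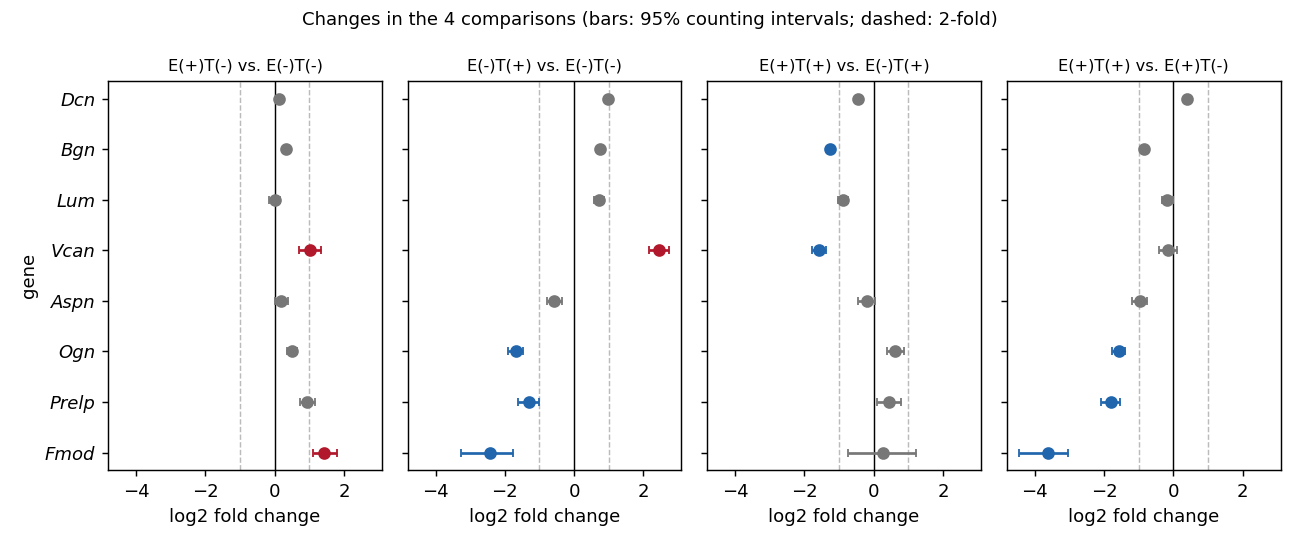
Log2 fold changes of the 8 genes in the 4 comparisons, with 95% counting intervals as bars, dashed lines at 2-fold, red for genes that rose and blue for genes that fell by at least 2-fold. Fmod lies furthest to the left, at -3.62 in E(+)T(+) vs. E(+)T(-), and Vcan rises by 2.44 in E(-)T(+) vs. E(-)T(-).

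The third comparison, E(+)T(+) vs. E(-)T(+), concerned exercise in tumor-bearing mice. Bgn and Vcan fell and no member rose. This was 2 of 8 that fell, beside 10.0% of 14363 genes tested, and 0 of 8 that rose, beside 9.39%. Vcan fell by 1.57 on the log2 scale (-1.79 to -1.36), from 843 to 228 reads, and Bgn fell by 1.26 (-1.34 to -1.17), from 4753 to 1606 reads. Lum was 0.88 lower on the log2 scale, with a change of -0.88 (-1.03 to -0.74), and Dcn changed by -0.46 (-0.48 to -0.44) and Aspn by -0.20 (-0.44 to 0.04). Ogn was 0.63 higher (0.38 to 0.88) and Prelp 0.45 higher (0.11 to 0.80), while Fmod, at 20 and 19 reads, differed by 0.26 with an interval of -0.75 to 1.22. Scaled to library totals, the changes of Prelp and Fmod turned to -0.13 and -0.33, that of Ogn came to 0.04 and that of Bgn to -1.84, with the median of all genes then at -0.60. The member median was -0.33, against -0.01 over all genes.

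The partner collagens and crosslinking genes stood lower in the exercised tumor heart, with 14 of 17 that fell and none that rose and a median of -1.99. Col1a1 went from 2907 to 275 reads and Col3a1 from 4941 to 402 reads. Fibroblast markers were at a summed level of 30388 normalized reads in the control heart, 34770 in the exercised heart, 33992 in the tumor heart and 26776 in the exercised tumor heart. Of the 20 fibroblast markers, 6 fell and none rose in this comparison, none was at 0, and their part in the fall of Vcan and Bgn was not tested. Of 15 monocyte and macrophage markers 5 fell and 1 rose, and of 8 adipocyte markers tested 5 rose and none fell. Their part was not tested either.

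The fourth comparison, E(+)T(+) vs. E(+)T(-), concerned the tumor in the exercised heart. Fmod, Prelp and Ogn fell and no member rose. This was 3 of 8 that fell, beside 11.1% of 14289 genes tested, and 0 of 8 that rose, beside 12.0%. Fmod fell by 3.62 (-4.44 to -3.02), from 297 to 19 reads. Prelp fell by 1.80 (-2.07 to -1.54), from 629 to 149 reads, and Ogn fell by 1.57 (-1.76 to -1.38), from 1047 to 292 reads. Aspn changed by -0.96 (-1.19 to -0.75) and Bgn by -0.85 (-0.94 to -0.76). Lum changed by -0.17, and Vcan by -0.15 with an interval of -0.41 to 0.10. Dcn was 0.39 higher, and turned to -0.33 when scaled to library totals, where Vcan came to -0.87, with the median of all genes then at -0.74. The member median was -0.91, against -0.01 over all genes. Of 13 valve and tendon markers tested here, 7 fell and none rose. In E(-)T(+) vs. E(-)T(-), where Fmod, Prelp and Ogn also fell, 4 of 11 of these markers rose and 2 fell, with a median of -0.26. The part of these markers in the fall of Fmod, Prelp and Ogn was not tested.

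The fall of Fmod, Prelp and Ogn past 2-fold was thus found with and without exercise. These 2 comparisons share no library, and the 2 comparisons of exercise share none either. Every other pair of comparisons has 1 library in common, so their values are not independent. Of all genes tested, 13.1% fell with the tumor in the sedentary heart and 11.1% in the exercised heart. The share that fell in both was not computed. Set directly against the control heart, the exercised tumor heart had Dcn at 0.53, Vcan at 0.86 and Fmod at -2.18 on the log2 scale, Ogn at -1.06, Prelp at -0.86, Aspn at -0.77, Bgn at -0.51 and Lum at -0.17. In RPM Dcn was lower there, as given above, Vcan stood at 18.0 in the control and 19.7 in the exercised tumor heart, and Lum at 92.8 and 49.4.

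The change with exercise lay lower in tumor-bearing than in tumor-free hearts for 7 of the 8 genes. The same share over all genes was not computed, so the count cannot be called particular to these genes. The median change over all genes was 0.002 without and -0.01 with tumor. For Vcan the log2 change was 1.02 without and -1.57 with tumor, a difference of -2.59 (-2.96 to -2.22). For Bgn it was 0.34 and -1.26, a difference of -1.60 (-1.71 to -1.49), and for Dcn 0.14 and -0.46, a difference of -0.60 (-0.63 to -0.56). In these 3 genes the 2 changes have opposite signs, each beyond counting error. Lum differed by -0.88 (-1.09 to -0.67), Fmod by -1.19 (-2.15 to -0.22), Prelp by -0.48 and Aspn by -0.40. Ogn was the exception, higher in both with a difference of 0.12 and an interval of -0.16 to 0.41. Scaled to library totals, the median exercise change over all genes was -0.02 without and -0.60 with tumor. In that setting all 8 member differences lay below 0, from -3.16 for Vcan to -0.44 for Ogn. These differences were not tested over replicates.

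**Figure D3:**
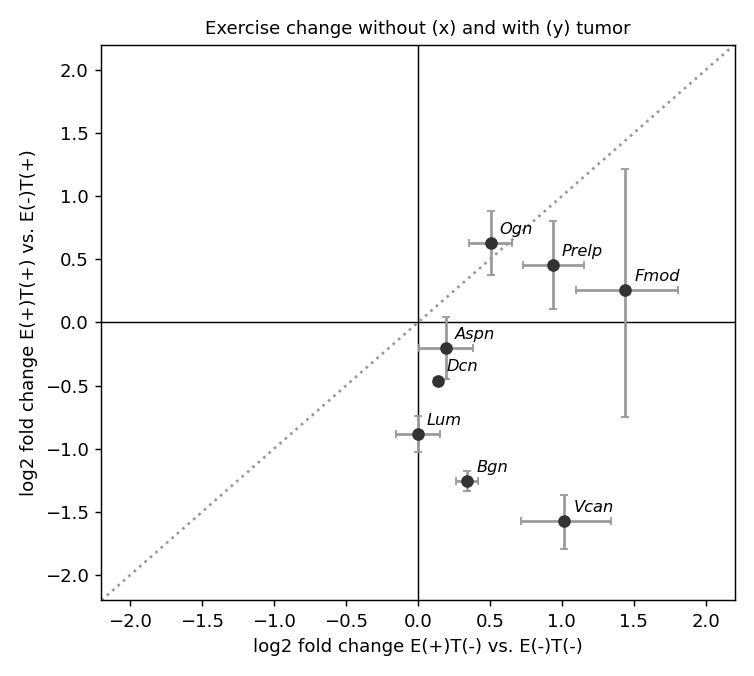
Log2 fold change with exercise in tumor-free hearts (x axis) and in tumor-bearing hearts (y axis) for the 8 genes, with 95% counting intervals as bars and a dotted line where both are equal. Vcan sits at 1.02 and -1.57, farthest below the line, and Ogn lies near it at 0.51 and 0.63.

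The make-up of the family could be read within each library, without any scaling between libraries. Dcn took 80.8% of the reads of the 8 genes in the control heart, 77.7% in the exercised heart, 85.7% in the tumor heart and 89.6% in the exercised tumor heart. Of the reads of the other 7 genes, Vcan took 2.81% (95% Wilson interval 2.36% to 3.36%) in the control heart, 4.31% (3.86% to 4.80%) in the exercised heart, 11.0% (10.4% to 11.8%) in the tumor heart and 7.34% (6.48% to 8.31%) in the exercised tumor heart. On this basis Vcan held a larger share in both tumor libraries. Of the reads of all 8 genes Vcan took 0.540%, 0.960%, 1.58% and 0.760% in the same order, so with Dcn counted only the tumor heart stood above the exercised heart. Of the reads of the 7 genes other than Dcn, Ogn took 13.8%, 14.7%, 3.06% and 9.40% in the same order of libraries. On that basis Prelp took 6.12%, 8.83%, 1.77% and 4.80%, and Fmod 2.03%, 4.17%, 0.262% and 0.612%. The reads of Vcan per read of Ogn were 0.204 in the control heart and 0.293 in the exercised heart. They were 3.60 in the tumor heart and 0.781 in the exercised tumor heart. Vcan thus had more reads than Ogn in the tumor heart alone. The reads of Lum per read of Fmod were 7.12, 2.61, 65.3 and 30.0.

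**Figure D4:**
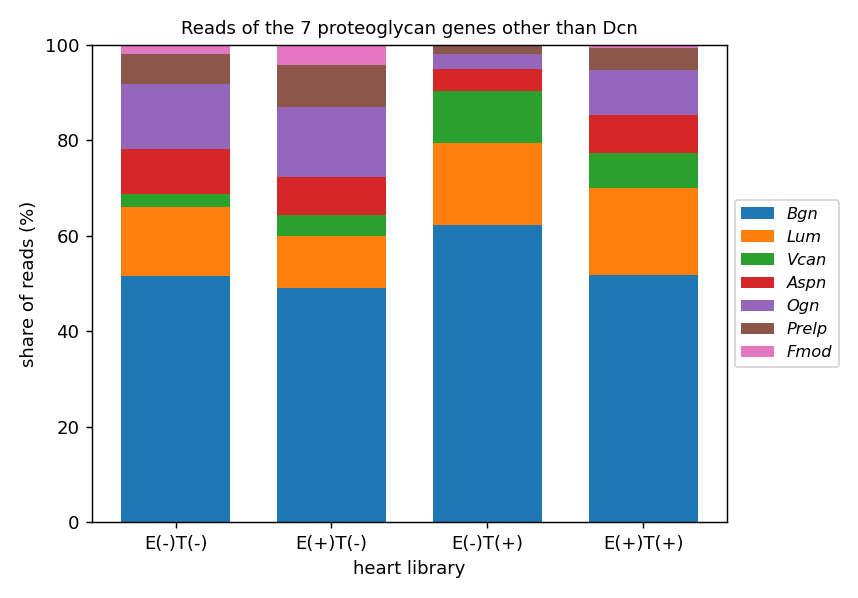
Share (%) of the reads of the 7 genes other than Dcn in each heart library, stacked to 100%. Bgn holds 49.1% to 62.3% in every library, Vcan widens to 11.0% in the tumor heart, and Ogn, Prelp and Fmod narrow there.

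Relative to fibroblast markers the family differed as well. The 8 genes together had 832 reads per 1000 reads of the 20 fibroblast markers in the control heart, 832 in the exercised heart, 1388 in the tumor heart and 1225 in the exercised tumor heart. Most of this was Dcn, which alone had 672, 647, 1190 and 1098 in the same order. Bgn had 82.2, 91.0, 123 and 65.6, lowest in the exercised tumor heart. Gsn, an actin-severing protein gene, gave 11442 of the 26511 marker reads in the control heart. Without Gsn the values of the 8 genes together were 1463, 1457, 1785 and 1807. The gap between the tumor and control hearts was then smaller. The tumor and exercised tumor hearts lay close together, and no interval was computed for these ratios. With Gsn counted, Vcan had 4.49, 7.99, 21.9 and 9.31 reads per 1000 in these libraries, and Fmod 3.24, 7.73, 0.519 and 0.776. Ogn had 22.0, 27.2, 6.07 and 11.9. Read against these markers, with or without Gsn, Fmod and Ogn were still lower in both tumor libraries and Vcan was still highest in the tumor heart. The markers did not move together, with 14 higher and 6 lower in the tumor heart than in the control heart. Mmp2 went from 509 to 2762 reads and Islr from 58 to 32. Whether each marker reports fibroblasts alone was not tested, so these ratios are not values per fibroblast. Against the summed reads of Col1a1, Col1a2 and Col3a1, the family held 6.35 reads per collagen read in the control heart, 4.25 in the exercised heart, 3.67 in the tumor heart and 18.3 in the exercised tumor heart. Dcn alone gave 5.13, 3.30, 3.14 and 16.4 of these. In the exercised tumor heart the collagens were low beside the summed proteoglycan reads, most of which were Dcn.

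In the genome, 6 of the 8 genes lie beside other members of the family. Dcn and Lum share 202 kb of chromosome 10 with Kera and Epyc, Aspn and Ogn share 120 kb of chromosome 13 with Ecm2 and Omd, and Prelp and Fmod share 151 kb of chromosome 1 with Optc. Vcan lies apart on chromosome 13 beside Hapln1, which had 0, 13, 3 and 2 reads, and Bgn lies on chromosome X. In RefSeq (GRCm38.p6) the genes span chr10:97479500-97518163 (Dcn), chr10:97565501-97572703 (Lum), chr13:49544443-49567565 (Aspn), chr13:49608015-49624501 (Ogn), chr1:133910304-133930102 (Prelp), chr1:134037254-134048280 (Fmod), chr13:89655309-89743027 (Vcan) and chrX:73483601-73495936 (Bgn).

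Within the chromosome 13 cluster, Ecm2, a gene of the same fold, was read at 382 in the control heart, 529 in the exercised heart, 74 in the tumor heart and 132 in the exercised tumor heart, and in the tumor comparison without exercise it fell by 2.73. Ogn fell there too while Aspn, which lies between Ecm2 and Ogn, did not fall past 2-fold. Dcn and Lum were both higher in the tumor heart than in the control heart, short of 2-fold, and Epyc, which had no read in the control heart, had 9 in the exercised heart, 22 in the tumor heart and 14 in the exercised tumor heart. On the opposite strand, Cenpp spans Aspn and Ogn and shares 7 exon bases with Aspn and 0 with Ogn, and it had 18 to 32 reads in each library. The strand setting of the counting is not given in the sources used here. Gm15851, an antisense gene sharing 350 exon bases with Prelp, was not analysed here.

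**Figure D5:**
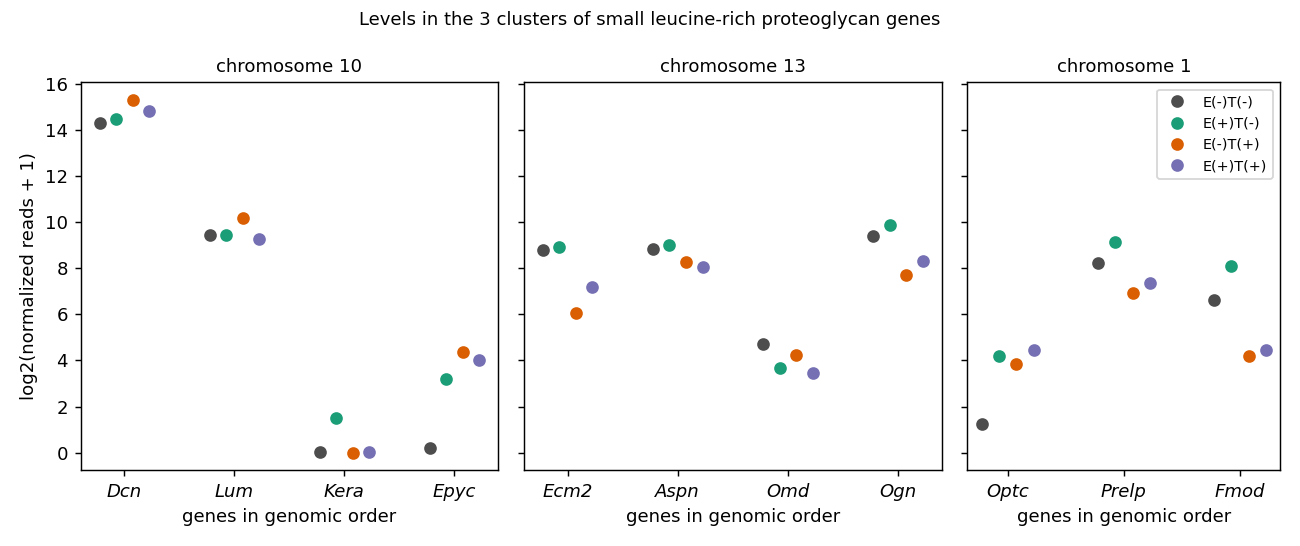
Log2(normalized reads + 1) in the 4 heart libraries for the genes of the 3 family clusters, in genomic order. Ecm2, Ogn, Prelp and Fmod stand lower in both tumor libraries, whereas Dcn and Lum are highest in the tumor heart.

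Of the 11 other small leucine-rich proteoglycan genes listed, Podn, which encodes podocan, was read at 155 to 240 reads in every library. Chad, which encodes the cartilage protein chondroadherin, had 1 read in the control heart, 91 in the exercised heart, 2 in the tumor heart and 15 in the exercised tumor heart, so most of its reads were in the exercised tumor-free library, where Comp and Cilp2 were also highest. Of the 11, 8 were tested in E(+)T(-) vs. E(-)T(-), where 4 rose and 1 fell. Of 9 tested in E(-)T(+) vs. E(-)T(-), 4 rose and 2 fell, of 10 tested in E(+)T(+) vs. E(-)T(+), 4 rose and 1 fell, and of 9 tested in E(+)T(+) vs. E(+)T(-), none rose and 2 fell. Of all genes tested, 5.88%, 14.6%, 9.39% and 12.0% rose in these comparisons, and 6.40%, 13.1%, 10.0% and 11.1% fell. Several of these counts rest on few reads. Epyc, Optc, Chad and Chadl had 0, 1, 1 and 1 reads in the control heart, and in E(+)T(+) vs. E(-)T(+) Chadl rose from 5 to 9 reads.

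Enzymes of glycosaminoglycan chain synthesis build the sugar chains that proteoglycans carry. Of 27 tested, 1 rose and 3 fell in E(-)T(+) vs. E(-)T(-), and none rose and 2 fell in E(+)T(+) vs. E(-)T(+). Hyaluronan and lectican genes included Has1, a hyaluronan synthase, at 2, 31, 25 and 38 reads, and Tnfaip6, which crosslinks hyaluronan, at 9, 29, 65 and 57 reads in the control heart, the exercised heart, the tumor heart and the exercised tumor heart. Of the genes of TGF-β signalling, 19 were tested in every comparison. In E(-)T(+) vs. E(-)T(-), 5 rose and 2 fell, among them Ctgf, a matrix-linked growth factor, from 1702 to 12279 reads, and Ltbp4, a TGF-β binding protein, from 1290 to 507 reads. Receptors for these proteoglycans showed 5 of 16 that rose and 1 that fell there, with Cd14, a Toll-like receptor co-receptor, from 71 to 294 reads.

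The genes whose 4 log2 values, centred on their own mean, lay nearest to each member were searched among 11632 genes whose mean level reached 16 normalized reads. For Vcan these were Itgb2, a leukocyte integrin chain, at a distance of 0.08, and the proteases Adamts2 and Adamts15 at 0.20 and 0.25. For Aspn they were Intu at 0.03, Gpc6 at 0.05 and Frmd7 at 0.06. The nearest gene to Dcn was Rpl13, a ribosomal protein gene, at 0.03, to Bgn it was Alg12 at 0.07, to Lum it was Scarb1 at 0.03 and to Ogn it was Pwwp2b at 0.08. For Fmod, Mgl2 and P4ha1 were nearest at 0.62 and 0.63. For Prelp they were Tyw3, Creld2 and Tgfb3 at 0.13, 0.16 and 0.25. Prelp and Ogn lay 0.34 apart, and 0.0774% of the genes were nearer to Prelp than Ogn was. Fmod and Prelp were 1.52 apart with 0.602% nearer to Fmod. Bgn and Lum lay 0.48 apart with 2.27% nearer to Bgn. Each of these shares counts the gene itself among those nearer. These are distances over 4 libraries and carry no test.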

How the data were processed

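Hearts of 4 groups were profiled by QuantSeq 3′ mRNA-seq, 1 library each. The authors aligned reads with Bowtie2 to mm10, counted them with bedtools and normalized by the quantile method of edgeR. The deposited values are log2 of normalized read counts plus a pseudocount of 1. Tool versions and the annotation are not given in the sources used here. Quantile adjustment was inverted with 1 common dispersion (0.149) to recover whole reads, and every deposited value was given back within 0.000575. The largest counts are accurate only to the rounding of the deposited values.

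Changes are differences of the log2 values between libraries. A gene was tested when it reached 4 normalized reads in either library, and it rose or fell at 2-fold or more. Intervals are Clopper-Pearson (ratios), Poisson (levels), Wilson (shares) or a normal approximation (differences between exercise changes) at 95%. The steps were checked on simulated data, with Python 3.11.15, numpy 2.4.6, scipy 1.17.1 and pandas 2.3.3. The members and gene lists were chosen with earlier results of these data known. Besides the 8 members, up to 3 genes of each list with the largest absolute change and a mean of at least 16 normalized reads are named, and the 3 genes with the nearest profile per member. Genome neighbours of members, Podn, Chadl, Tnmd, Mkx, Chodl, Scx, Frzb, Gsn, Lep and Col1a2 were named after their values were seen. Alternatives changed the count minimum, scaling, pseudocount, depth, fold, family basis and reference list. Coordinates and promoter sequences are from RefSeq (GRCm38.p6), and exon overlaps from GENCODE.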

Additional observations from a re-analysis of the deposited data

Results flagged for a closer look

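In 3 genes the change with exercise had opposite signs in tumor-free and tumor-bearing hearts, each beyond counting error. Aspn also changed sign, at 0.20 and -0.20, but the interval of the second change includes 0. The difference between the log2 changes was -0.60 for Dcn, -1.60 for Bgn and -2.59 for Vcan. The share of all genes with opposite signs was not computed. With 1 library per group the difference was not tested.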

How the results depend on the processing

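Thinning to the smallest library and pseudocounts of 0.5 and 4 left the sign of all 32 member changes as reported. The scaling to library totals moved 17 of 32 member changes by more than the interval of the change, scaling to reads outside the globin genes 7 and scaling to reads outside genes over 1% of any library 8. Scaled to library totals, exercise with tumor changed in sign for Fmod (0.26 to -0.33) and Prelp (0.45 to -0.13), and the tumor change with exercise did so for Dcn (0.39 to -0.33). In the same setting 4 of 8 members fell in E(+)T(+) vs. E(-)T(+), beside 25.6% of all genes tested, with a median of -0.92, and 5 fell in E(+)T(+) vs. E(+)T(-), beside 35.3%, with a median of -1.63. The median over all genes then stood at -0.60 and -0.74, against -0.17 in E(-)T(+) vs. E(-)T(-). Of all genes called in E(+)T(+) vs. E(-)T(+), 12.9% rose in that setting and 48.4% in the main one, and for E(+)T(+) vs. E(+)T(-) the shares were 13.7% and 52.0%. Scaled to reads outside the globin genes or outside genes over 1% of any library, 1 member rose in E(+)T(-) vs. E(-)T(-), beside 5.83% and 5.70% of all genes, and 5 fell in E(+)T(+) vs. E(+)T(-), beside 14.5% in both settings, with medians of -1.08 and -1.08. At 1.5-fold 4 members rose in E(-)T(+) vs. E(-)T(-), beside 24.0% of all genes, 1 rose in E(+)T(+) vs. E(-)T(+), beside 17.5%, and 5 fell in E(+)T(+) vs. E(+)T(-), beside 21.6%. The cause was not tested. No paired analysis was possible because each group has 1 library, which also leaves no library that can be left out.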

Other observations

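Of 10 smooth muscle and pericyte markers, 5 were higher and 5 lower in E(+)T(-) vs. E(-)T(-), with 4 that rose past 2-fold. Cnn1, a contractile regulator, had 35, 332, 217 and 168 reads and Tagln, an actin-binding protein gene, 131, 706, 783 and 603 reads in the control, exercised, tumor and exercised tumor heart, so both were lowest in the control heart. Notch3, a pericyte receptor gene, had 134, 154, 106 and 42 reads. On a list of heparan sulfate and other proteoglycan genes, 16 were tested in E(-)T(+) vs. E(-)T(-). Of these, 5 rose and 1 fell, with Sdc4, a syndecan, from 106 to 401 reads. Gpc4, a glypican, had 52, 47, 44 and 8 reads in E(-)T(-), E(+)T(-), E(-)T(+) and E(+)T(+).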
